A study of Mus musculus with 2 samples.

Results

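The natriuretic peptide system of the young mouse heart was described through 9 genes, taken by symbol from a named list: the peptide genes Nppa, Nppb and Nppc, the receptor genes Npr1, Npr2 and Npr3, the convertase genes Corin and Furin, and the peptidase gene Mme. All 9 were found among the 55536 annotated genes of the deposited tables. The RNA came from heart tissue of male B6CASTF1/J mice, a hybrid of the B6 and CAST strains, aged 10 days. There were 2 libraries in 1 group, so no treatment, genotype or age was compared. Both libraries, called replicate 1 and replicate 2 after their labels, were made from 300 ng of total RNA with ribosomal RNA reduced, strand kept and ERCC control RNAs added. Their labels carry separate male numbers and yet cite a single donor record, and the spread given here is therefore that between 2 samples and may be technical.

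Natriuretic peptides lower blood volume and pressure, and heart muscle cells release those of the heart when its wall is stretched. Nppa encodes the atrial natriuretic peptide (ANP), made mainly in the adult atrium but also in the fetal ventricle. Nppb encodes the B-type peptide (BNP), and Nppc the C-type peptide (CNP), which acts locally in vessels and bone. ANP and BNP act on the receptor encoded by Npr1, and CNP on that encoded by Npr2; both receptors carry a guanylyl cyclase that makes the messenger cGMP. The receptor encoded by Npr3 lacks the cyclase and takes all 3 peptides out of circulation. Corin, a protease on the heart muscle cell surface, cuts the ANP precursor, furin cuts other precursors including those of BNP and CNP, and neprilysin, encoded by Mme, degrades the peptides.

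All 3 peptides share a ring of 17 residues closed by a bond between the cysteines at its ends, the part that binds the receptors. The codons of that ring in Nppb and Nppc, from the reference transcript sequences, are shown because the ring defines the peptide family; capitals mark bases identical in both genes. Each run begins and ends with a cysteine codon, spans 51 bases and lies in exon 2 of 3 (mm10).
Nppb, chr4:147986464-147986514, plus strand: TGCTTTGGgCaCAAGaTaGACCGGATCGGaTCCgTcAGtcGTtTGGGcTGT
Nppc, chr1:86669667-86669717, minus strand: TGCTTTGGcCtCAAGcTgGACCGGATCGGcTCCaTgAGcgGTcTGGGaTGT
The Nppb and Nppc rings, on different chromosomes, matched at 40 of the 51 bases (78.4%). The ring ends at the last codon of Nppc, codon 126, whereas the coding sequence of Nppb continues beyond it.

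The depth was alike, with a total expected count of 38851514 in replicate 1 and 37907585 in replicate 2. Expected counts are estimated reads per gene and TPM is abundance per length, scaled to a fixed sum per library. Each library was quantified in 2 ways by the authors, called here the first and the other quantification; values are from the first unless stated. All 6 cardiomyocyte markers were detected in both libraries, led by Myh6, the main adult myosin, at 8464 ± 185 TPM (SD, n = 2) and Tnnt2, cardiac troponin T, at 3075 ± 49.2 TPM.

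In the first quantification the peptide system was led by Nppa in either library, whereas in the other Nppb led in replicate 2. Of the 9 genes, 8 were detected at 1 TPM or more in both libraries. Over all annotated genes 22.9% reached that level, and over protein-coding genes 52.4%. Nppc alone stayed below it. The genes spanned from 434.5 TPM on average for Nppa to 0.26 TPM for Nppc. These levels depend on what TPM is scaled over: with TPM rescaled to protein-coding genes outside the mitochondrial genome, the means were 1031 TPM for Nppa and 0.627 TPM for Nppc.

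**Figure D1:**
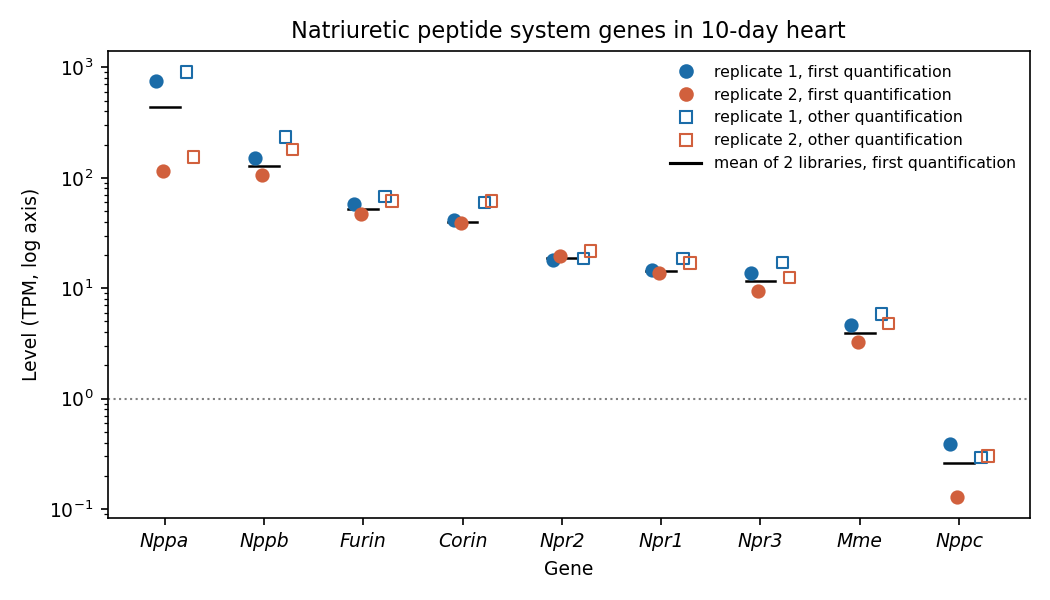
Level of each gene in TPM on a log axis, with 1 point per library and quantification; horizontal bars are means of the 2 libraries in the first quantification and the dotted line marks 1 TPM. Nppa is the gene whose libraries lie farthest apart among the 8 detected genes, from 753.36 to 115.69 TPM in the first quantification, and Nppc is the gene below the dotted line.

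Nppa (ENSMUSG00000041616.9, chr4:148000722-148002079, plus strand, mm10) was by mean TPM the most abundant of the 9 genes, and it was the most variable of those detected. It had 17446 counts in replicate 1 and 2839 in replicate 2. This corresponded to 753.36 and 115.69 TPM, a mean of 434.5 TPM with an SD of 450.9 (n = 2). Replicate 1 was thus the high library, and the SD exceeded the mean. Among 11546 detected protein-coding genes, Nppa ranked 60 in replicate 1 and 468 in replicate 2.

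Nppb (ENSMUSG00000029019.8, chr4:147985788-147987205, plus strand) had 3103 counts in replicate 1 and 2318 in replicate 2. Its level was 150.50 and 106.09 TPM (128 ± 31.4 TPM, SD, n = 2), and its rank 437 and 517. Replicate 1 was again higher, but by far less than for Nppa. In the first quantification the lower Nppa value, 115.69 TPM, lay inside the range of Nppb.

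Nppc (ENSMUSG00000026241.5, chr1:86666291-86670571, minus strand) had 11 counts in replicate 1 and 4 in replicate 2, or 0.39 and 0.13 TPM. The other quantification gave it 6 counts in both libraries. A floor of 3 counts equals 0.0772 CPM (counts scaled to the total of the library) in replicate 1 and 0.0791 in replicate 2, so the 4 counts of replicate 2 lay just above it, and a difference between the libraries was not detectable at this depth.

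The 3 peptide genes together stood at 904 TPM in replicate 1 and 222 TPM in replicate 2. Nppa made up 83.3% of that sum in replicate 1 and 52.1% in replicate 2. In the other quantification its share was 79.5% and 46.0%. The peptide RNA of replicate 1 was therefore mostly Nppa, while in replicate 2 Nppa and Nppb were at nearly the same level.

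Among the receptors, the cyclase receptors together outweighed the clearance receptor in both libraries. Npr2 (ENSMUSG00000028469.15, chr4:43631935-43651244, plus strand), the CNP receptor, was highest at 17.90 and 19.54 TPM in replicates 1 and 2 (18.7 ± 1.16 TPM, SD, n = 2), from 1528 and 1609 counts. Npr1 (ENSMUSG00000027931.12, chr3:90450591-90465866, minus strand), the receptor for ANP and BNP, was at 14.77 and 13.60 TPM (14.2 ± 0.827 TPM), from 1625 and 1487 counts. Npr3 (ENSMUSG00000022206.7, chr15:11839896-11907287, minus strand), the clearance receptor, was at 13.74 and 9.51 TPM (11.6 ± 2.99 TPM), from 2071 and 1513 counts. Npr3 was the receptor that varied most. Its higher value, 13.74 TPM, lay within the range of Npr1, so the ranges of these neighbours in the order of levels overlapped. Within each library Npr1 was the higher, by 1.07-fold in replicate 1 and 1.43-fold in replicate 2.

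The balance between clearance and signalling was given as Npr3 TPM over the sum of Npr1 and Npr2 TPM, with 0.1 added to both. Its log2 was -1.24 in replicate 1 and -1.79 in replicate 2 (-1.52 ± 0.39, SD, n = 2). The cyclase receptors together were hence 2.37-fold and 3.46-fold above Npr3. Their own sum was nearly constant, 32.7 TPM in replicate 1 and 33.1 TPM in replicate 2. Npr3 accounted for 29.6% of receptor TPM in replicate 1 and 22.3% in replicate 2. The other quantification gave log2 ratios of -1.11 and -1.62, with the same library higher.

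By mean level the CNP receptor gene Npr2 stood above Npr1, while its ligand gene Nppc was the scarcest of the 9. Npr2 exceeded Npr1 by 1.21-fold in replicate 1 and 1.43-fold in replicate 2. In the other quantification they were level in replicate 1, at 18.5 TPM for Npr2 and 18.6 TPM for Npr1, while Npr2 led in replicate 2 by 1.29-fold. The order of these receptors therefore held in 3 of 4 library and quantification columns at the level of whole genes. It did not hold for their leading coding transcripts. In the first quantification Npr1-201 was at 13.32 and 11.31 TPM in replicates 1 and 2, and Npr2-201 at 11.98 and 11.10 TPM. The other quantification gave Npr1-201 15.6 and 14.5 TPM and Npr2-201 14.8 and 15.5 TPM. The lead of Npr2 thus rested partly on its other transcripts.

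The genes that process and degrade the peptides formed a middle and a low tier. Furin (ENSMUSG00000030530.15, chr7:80388585-80405436, minus strand), the general precursor convertase, was at 57.99 TPM in replicate 1 and 46.51 TPM in replicate 2 (52.3 ± 8.12 TPM, SD, n = 2), from 7051 and 6151 counts. Corin (ENSMUSG00000005220.10, chr5:72300025-72504473, minus strand), the ANP convertase, was at 41.12 and 39.25 TPM (40.2 ± 1.32 TPM), from 5203 and 5314 counts. This was the smallest relative spread in TPM of the 9 genes. Mme (ENSMUSG00000027820.12, chr3:63241537-63386030, plus strand) was at 4.63 and 3.23 TPM (3.93 ± 0.990 TPM), from 583 and 388 counts. Mme was the lowest of the 8 detected genes, below the receptors in both libraries.

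Because Corin hardly varied in TPM while Nppa did, the substrate to convertase balance differed between the libraries. Nppa TPM over Corin TPM was 18.3-fold in replicate 1 and 2.94-fold in replicate 2. Nppb over Furin was 2.59-fold and 2.28-fold. In the other quantification Nppa exceeded Corin by 15.1-fold and 2.49-fold. These are ratios of RNA levels and hold no measure of protein.

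The order by mean TPM was Nppa, Nppb, Furin, Corin, Npr2, Npr1, Npr3, Mme, Nppc. Of the 8 neighbouring pairs in this order, Nppb over Furin, Corin over Npr2, Npr1 over Npr3, Npr3 over Mme and Mme over Nppc kept their order in all 4 columns. Nppa over Nppb, Furin over Corin and Npr2 over Npr1 kept it in 3 of 4. In the first quantification the ranges overlapped for Nppa with Nppb and for Npr1 with Npr3.

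The libraries were then set against each other gene by gene. After TMM scaling in edgeR and an added 0.5 count, the log2 ratio of replicate 2 over replicate 1 was taken with its exact 95% Clopper-Pearson interval, which covers counting error only. Of the 9 genes, 8 had a mean count of at least 50 and were measured; Nppc, at -1.22 (interval -3.42 to 0.44), was not. Nppa was over 2-fold different, and it was the 1 gene of the 8 to be so. Across all 13213 measured genes 1.79% were over 2-fold, 0.984% lower and 0.802% higher in replicate 2. With 1 library on each side there is no test of this difference across animals.

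The log2 ratio of Nppa was -2.48 (interval -2.54 to -2.42), which is a 5.57-fold lower scaled count in replicate 2. Among measured genes, 28 had a lower ratio. The next in size was Mme at -0.45 (-0.64 to -0.26), followed by Npr3 at -0.31 (-0.41 to -0.22) and Nppb at -0.28 (-0.36 to -0.20). Those 3 genes were lower in replicate 2 by less than 1.5-fold.

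Furin had a log2 ratio of -0.06 (-0.11 to -0.01). Npr2, at 0.22 (0.11 to 0.32), and Corin, at 0.17 (0.12 to 0.23), were higher in replicate 2. Npr1 lay at 0.01 (-0.09 to 0.12), and its sign changed with the scaling, reaching -0.09 when libraries were scaled by total count. All 7 measured genes other than Nppa were within 1.5-fold.

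**Figure D2:**
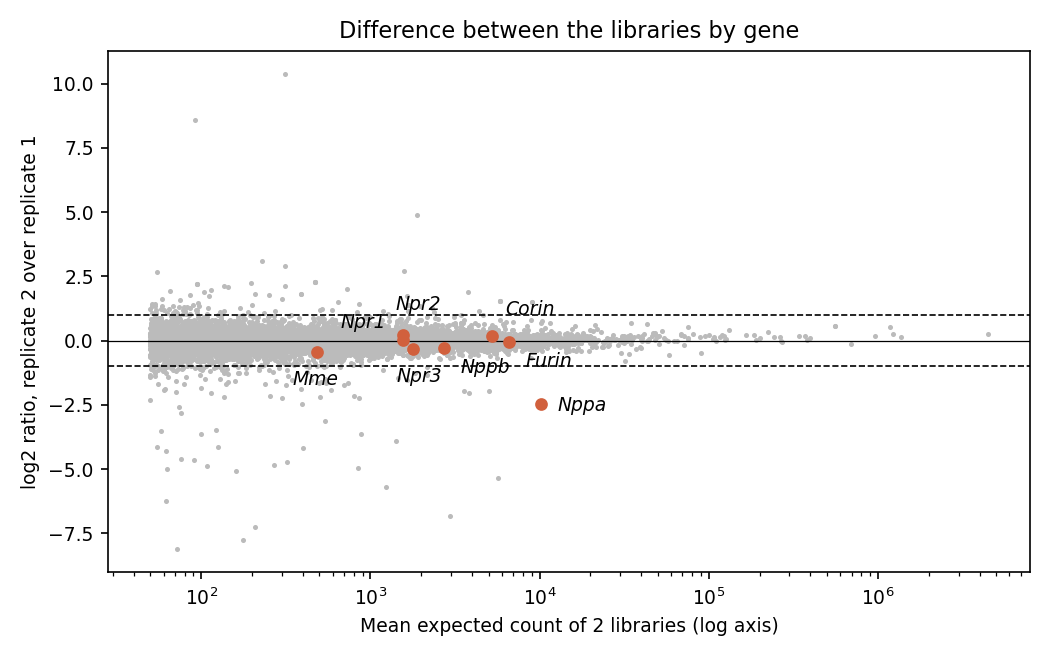
Log2 ratio of replicate 2 over replicate 1 against mean expected count (log axis) for all 13213 measured genes (grey) and the 8 measured genes of the peptide system (red); dashed lines mark 2-fold. Nppa lies at -2.48, apart from the band that holds the other 7, which range from -0.45 to 0.22.

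Intervals that left out 1 were found for 7 of the 8 genes, 5 lower and 2 higher in replicate 2. At this depth 42.9% of all measured genes had such an interval, 20.5% lower and 22.3% higher. The median log2 ratio of the 8 genes was -0.17, against 0.01 for all measured genes, whose 5th and 95th percentiles were -0.47 and 0.46. Apart from Nppa, each of the 8 lay within those percentiles.

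TPM and scaled counts gave different centres. The median log2 ratio of measured genes was -0.21 in TPM and 0.01 in TMM-scaled counts. Corin was therefore lower in replicate 2 by TPM and higher by scaled counts. In scaled counts Npr1 and Furin were closer between the libraries than Corin. For Nppa the difference was 6.51-fold by TPM and 5.57-fold by scaled counts, in the same direction.

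**Figure D3:**
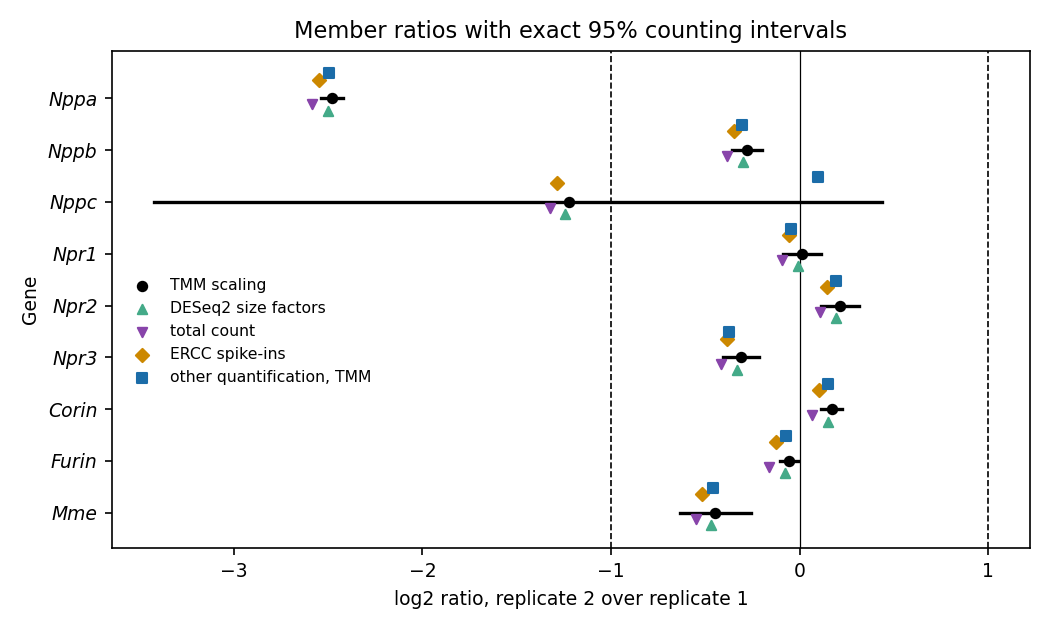
Log2 ratio of replicate 2 over replicate 1 for each of the 9 genes; black dots and bars are the TMM-scaled ratio and its exact 95% counting interval, other symbols are other scalings and the other quantification, and dashed lines mark 2-fold. Nppa stays between -2.58 and -2.48, Npr1 lies on both sides of 0, and the Nppc bar runs from -3.42 to 0.44.

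Scaled counts of most atrial markers were lower in replicate 2, as for Nppa. Those of all 6 general cardiomyocyte markers and 5 of 6 ventricular markers were higher. Of these, 6 and 4 had an interval leaving out 1, beside 22.3% of all measured genes. The differences were small, with a median log2 ratio of 0.18 for the general list. Of 8 atrial cardiomyocyte markers, 7 were detected in both libraries and 7 were lower in replicate 2. Of the lower ones, 6 had an interval leaving out 1, beside 20.5% of all measured genes. The summed level of the list was 784 TPM in replicate 1 and 180 TPM in replicate 2. The atrial myosin light chain genes Myl7 (393.29 and 86.59 TPM) and Myl4 (292.56 and 60.78 TPM) led that list, and none of its genes was at 0. The median log2 ratio of the atrial list was -1.01. Myl4, Myl7, Sln and Bmp10 were over 2-fold lower, beside 0.984% of all measured genes, while Kcna5 was higher in replicate 2. Kcnj3 (-0.33), Gja5 (-0.38) and Nr2f1 (-0.20, interval -0.56 to 0.16) were lower by far less than Nppa. The 6 ventricular markers summed to 13329 and 12809 TPM, with a median log2 ratio of 0.17, led by the ventricular light chains Myl2 at 7691 ± 292 TPM and Myl3 at 4608 ± 51.4 TPM. In bulk RNA, fewer cells of a type and less RNA per cell cannot be told apart. The part of these markers in the Nppa difference was not tested.

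Markers of non-muscle cells also differed between the libraries. Adipocyte markers summed to 437 TPM in replicate 1 and 31.7 TPM in replicate 2, with all 6 measured genes of 8 over 2-fold lower and none at 0 counts in both, led by the brown fat genes Ucp1 (239.01 and 5.02 TPM) and Cidea (82.24 and 24.21 TPM). Mesothelial markers, led by Msln and Upk3b, summed to 37.6 and 20.1 TPM, with 5 of 6 lower, all 5 with an interval leaving out 1. Fibroblast markers, led by the collagen genes Col3a1 and Col1a1, summed to 1952 and 1235 TPM. Of these 8 genes, 7 were lower, all 7 with such an interval. Macrophage markers, led by Lyz2 and Csf1r, summed to 55.0 and 34.6 TPM, with 6 of 6 lower, 4 with such an interval. Over all measured genes 20.5% were lower with such an interval, and 0.984% were over 2-fold lower. Npr3, Mme and Nppb were lower in the same library as these lists, and the part of the lists in those values was not tested.

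The endothelial list, led by Egfl7 and Cdh5, had a median log2 ratio of -0.05 over 8 measured genes, and the endocardial list, led by Vwf and Cdh11, -0.02 over 5. Smooth muscle and pericyte markers, led by Acta2 and Rgs5, had a median of -0.22 over members that went both ways. The smooth muscle genes Acta2 (-0.42), Cnn1 (-0.63), Myh11 (-0.66) and Tagln (-0.72) were lower in replicate 2, whereas Pdgfrb (-0.03), Rgs5 (0.06), Kcnj8 (0.11) and Abcc9 (0.15) lay near 0. Immediate early genes, led by Jun and Nr4a1, went the other way, with a summed level of 44.8 TPM in replicate 1 and 96.1 TPM in replicate 2 and a median log2 ratio of 0.72; Atf3 and Nr4a1 were over 2-fold higher in replicate 2. Lung epithelial markers summed to 2.57 and 4.36 TPM, led by Scgb1a1 and Ager with Sftpd at 0 counts, and neutrophil markers to 5.70 and 6.56 TPM, led by S100a9 and S100a8 with Elane at 0 counts.

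The genes whose ratio lay nearest to that of Nppa were taken from the 7411 genes with a mean count of at least 500. They were Scd1, a fatty acid desaturase, at -2.22, Pcx, pyruvate carboxylase, at -2.18, Ces1d, a carboxylesterase, at -2.14, Myl4 at -2.05, and Gpd1, a glycerol phosphate dehydrogenase, at -1.97. With 2 libraries a pattern is a single ratio, so this likeness rests on 1 number per gene.

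Nppa and Nppb are neighbours on chromosome 4, transcribed in the same direction, and 13517 bases separate the end of Nppb from the start of Nppa. The log2 ratio of Nppa over Nppb TPM (0.1 added) was 2.32 in replicate 1 and 0.12 in replicate 2, a 5.003-fold and a 1.09-fold lead of Nppa. In the other quantification it was 1.96 and -0.23, so there Nppb was the higher of the pair in replicate 2. The balance of the pair differed between the libraries in both quantifications, and which gene led in replicate 2 depended on the quantification.

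The surrounding genes examined were closer between the libraries than Nppa, as were most measured genes. Within 100 kb of the pair, 11 other genes were examined, and 5 of them were measured. None of the 5 was over 2-fold, beside 1.79% of all measured genes, so this is not particular to the locus. Their log2 ratios ran from -0.07 for Plod1, a collagen lysyl hydroxylase, to 0.12 for Agtrap, whose product binds the angiotensin receptor. Between these lay 2510039O18Rik at -0.04, the mitochondrial fusion gene Mfn2 at 0.03 and the chloride transporter gene Clcn6 at 0.07. Draxin and the pseudogenes or antisense genes Gm13156, Gm13207, Chchd2-ps and Gm13201 had 0 to 2 counts. The antisense gene Gm13054 overlaps Nppa by 989 bases on the opposite strand and had 7 counts in replicate 1 and 3 in replicate 2. No source used here states whether strand entered the counting, so reads in that overlap could be assigned to either gene, but the counts given to Gm13054 were few beside those of Nppa.

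**Figure D4:**
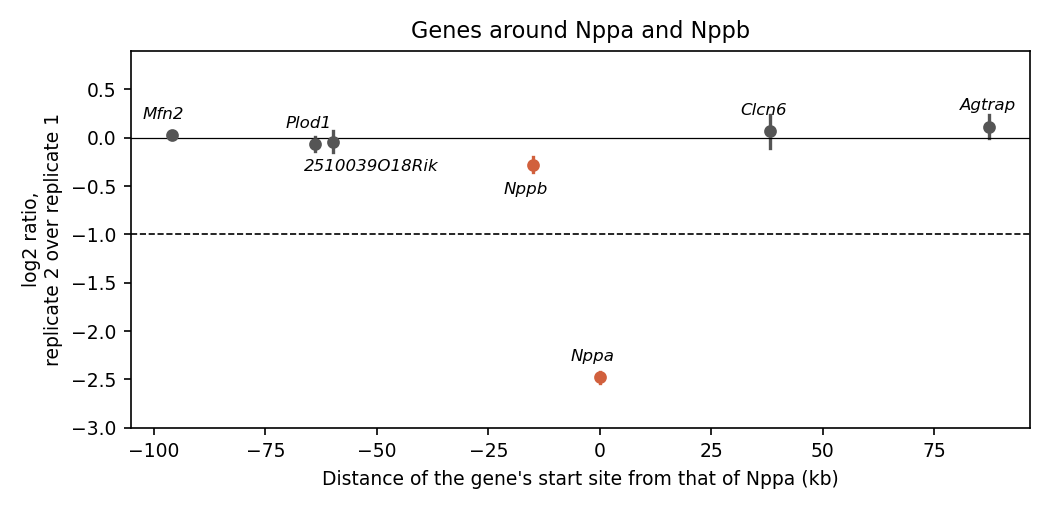
Log2 ratio of replicate 2 over replicate 1, with exact 95% counting intervals, against the distance in kb of each gene's start from the start of Nppa; Nppa and Nppb are in red and the dashed line marks 2-fold. The 5 grey neighbours lie between -0.07 and 0.12, Nppb at -0.28 and Nppa at -2.48.

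The sequence just upstream of the pair is shown because their starts are close and their ratios unlike. All 9 genes matched a promoter in the RefSeq table (GRCm38.p6), and the 250 bases before the start were searched for 5 motifs in 32851 such windows. Capitals mark matches to GATAA (GATA factors), TNAAGTG (NKX2-5), GGTGTG (T-box factors), all on both strands, and TATAAA (the TATA box, plus strand alone); a match on the minus strand appears as its reverse complement. For Nppb the RefSeq start lies 112 bases downstream of the GENCODE start, so the longer run shows the bases before both starts and the shorter run, which lies between these starts, the stretch with its GATAA matches.
Nppa, chr4:148000472-148000721, plus strand: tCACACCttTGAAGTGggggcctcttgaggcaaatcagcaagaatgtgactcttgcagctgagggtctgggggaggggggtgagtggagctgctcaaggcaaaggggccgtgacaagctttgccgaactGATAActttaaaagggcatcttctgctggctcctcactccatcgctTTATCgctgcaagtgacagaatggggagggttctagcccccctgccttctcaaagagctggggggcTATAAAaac
Nppb, chr4:147985650-147985787, plus strand: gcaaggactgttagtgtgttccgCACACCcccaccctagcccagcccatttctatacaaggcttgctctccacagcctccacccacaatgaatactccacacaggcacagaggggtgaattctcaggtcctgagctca
Nppb, chr4:147985800-147985823, plus strand: gcagctGATAAatcagaGATAAcc
GATAA occurred at 2 places in the window of either gene and at none in that of Nppc; 22.6% of all windows held it, and 4.28% held more than 1. GGTGTG occurred at 1 place each in Nppa and Nppb (16.3% of windows) and TATAAA at 1 place in each of the 3 peptide genes (7.59%). TNAAGTG occurred in the Nppa window alone of the 3 (10.1% of windows). CATTCC, the TEAD motif, searched on both strands, occurred in the Nppb window alone of the 3 (12.6%), at a base range that overlaps the first base of the shorter run. No match overlapped another. These are matches of letters, not measured binding sites.

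Transcription factors known to act on Nppa and Nppb were abundant and close between the libraries. Of 21 such regulators, 19 were detected, and none was over 2-fold. The highest were Hopx, a homeodomain cofactor, at 203 ± 7.03 TPM, Mef2a at 81.0 ± 1.32 TPM and Tbx20 at 67.6 ± 11.4 TPM (SD, n = 2). Of the 19 measured, 14 were higher in replicate 2 (13 with an interval leaving out 1) and 5 lower (3 with such an interval), beside 22.3% and 20.5% of all measured genes with such intervals, with a median log2 ratio of 0.12 against 0.01 over all measured genes. Hand2 (0.81), Tbx5 (-0.50) and Gata6 (0.48), named after their values were seen, had the ratios farthest from 0. Hand1 had 2 counts in each library.

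Genes of the cGMP pathway, downstream targets and transporters included, were detected for 18 of 26. They were led by the phosphodiesterase Pde1c at 41.2 ± 2.88 TPM, the cGMP kinase substrate Vasp at 31.1 ± 5.63 TPM and the cGMP-stimulated phosphodiesterase Pde2a at 29.2 ± 0.148 TPM. Of 20 measured, 10 were lower and 10 higher in replicate 2, of which 5 and 6 had intervals leaving out 1 (20.5% and 22.3% of all measured genes); none was over 2-fold, and the median log2 ratio was -0.02. Pde3b, which was named after its value was seen, was closest to the threshold at -0.93 (-1.09 to -0.78); scaling by total count or by ERCC counts moved it to -1.04 and -1.0004, past 2-fold. The cGMP-dependent kinase Prkg1, also named afterwards, was at 9.81 ± 1.59 TPM. Trpc6, Kcnma1, Gucy2e, Prkg2 and Pde11a were under 1 TPM in both libraries, and the cyclase receptor genes Gucy2c and Gucy2f had 0 counts.

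Other processing, degradation and secretory granule genes were detected for 9 of 20. Pam, an enzyme that amidates peptides and is a major membrane protein of atrial granules, was highest at 259.9 ± 49.6 TPM, followed by the carboxypeptidase Cpe at 96.7 ± 6.75 TPM and the insulin-degrading enzyme Ide, which also cuts ANP, at 50.7 ± 15.3 TPM. Of the 9 measured, 8 were lower in replicate 2, 7 with an interval leaving out 1, and 1 (Cpe) was higher with such an interval; none was over 2-fold. Among all measured genes 20.5% were lower and 22.3% higher with such an interval. The median log2 ratio was -0.29, against 0.01 for all measured genes. Pcsk6, a convertase that activates corin, was among the lower ones at 34.79 and 21.58 TPM and was named after its value was seen.

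The other 11 genes of that list were under 1 TPM in both libraries. Among them the convertase gene Pcsk2 and the granin genes Chga and Scg2 had 0 counts in both. Pcsk1, Pcsk4, Ece2, Mmel1, Chgb, Scg3, Scg5 and Ostn had counts in at least 1 library. Ostn encodes osteocrin, another ligand of the Npr3 receptor, and had 1 count in replicate 1 and 0 in replicate 2.

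Transcripts of the 9 genes were compared last. Nppa, Nppb and Nppc have 1 annotated transcript each, and the other 6 have more. The transcript with the highest share of TPM was the same in both libraries for 6 of 6 in the first quantification and for 4 of 6 in the other. Npr1-201, Npr2-201, Npr3-201 and Corin-201 led in all 4 columns, whereas Furin and Mme depended on the quantification.

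**Figure D5:**
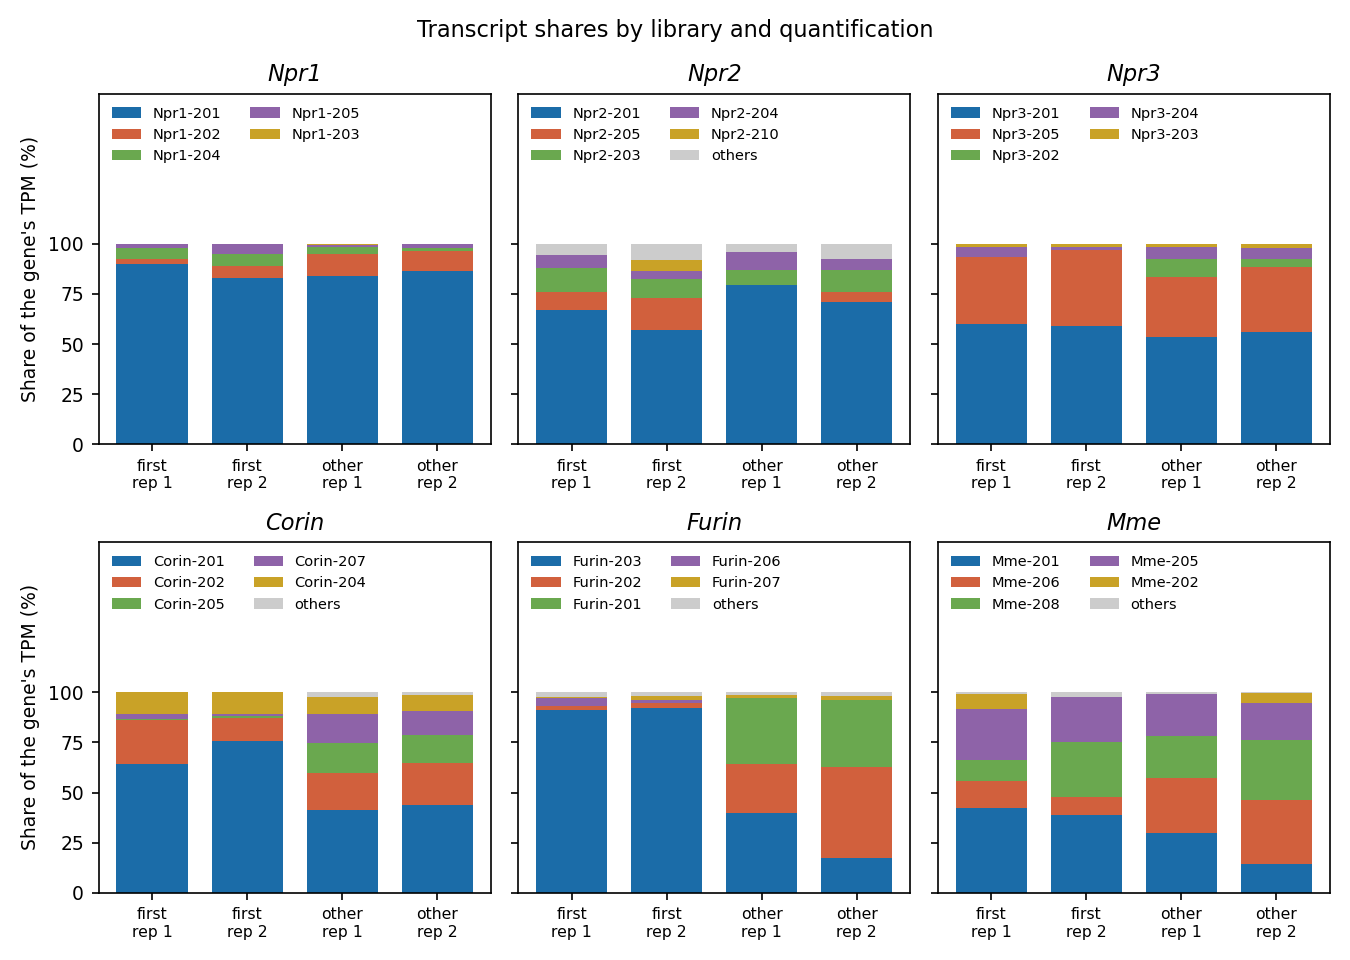
Share of each gene's TPM (%) taken by its transcripts in each library and quantification; each bar is 1 library in 1 quantification, colours are the 5 transcripts with the highest shares, and grey is the rest. Furin-203 takes 91.0% and 92.1% of Furin in the first quantification but 39.8% and 17.3% in the other, while Npr1-201 exceeds 83% throughout.

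Npr1-201, the coding transcript of Npr1, took 90.2% of TPM in replicate 1 and 83.2% in replicate 2. The Npr1 transcripts not annotated as protein-coding took 9.85% and 16.8% of TPM from only 28.0 and 50.2 counts, since they are short. Npr2-201 took 66.9% and 56.8%, and 84.4% and 78.7% of Npr2 counts.

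Npr3 was split between Npr3-201, at 59.9% in replicate 1 and 59.1% in replicate 2, and Npr3-205, at 33.5% and 38.0%. Their coding sequences are 1608 and 1605 bases long, and the 3′ UTR of Npr3-201 is longer by 4487 bases. The other quantification gave Npr3-201 53.6% and 56.1% and Npr3-205 30.05% and 32.5%. Both transcripts were thus present in similar proportion in the libraries. Unscaled counts of either were lower in replicate 2 (1690.51 and 1222.95 for Npr3-201, 325.1 and 270.86 for Npr3-205). These transcript counts were not scaled between the libraries, and whether Npr3-205 was lower after scaling was not tested.

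Corin-201 and Corin-202 start 265 bases apart and have coding sequences of 3339 and 3141 bases, identical over the last 3072. Corin-201 took 64.5% of TPM in replicate 1 and 75.6% in replicate 2, and Corin-202 took 21.7% and 11.6%. In the other quantification the shares were 41.5% and 44.0% for Corin-201, and 18.2% and 20.7% for Corin-202. The higher share of Corin-202 in replicate 1 was therefore not seen in the other quantification.

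Furin-201, Furin-202 and Furin-203 encode the same 2379 bases of coding sequence and differ in their first exons, with the starts of Furin-201 and Furin-202 lying 2669 and 1055 bases from that of Furin-203. The first quantification gave Furin-203 91.0% and 92.1% of TPM, Furin-202 2.07% and 2.51%, and Furin-201 0 counts. The other gave Furin-203 39.8% and 17.3%, Furin-201 32.8% and 33.0%, and Furin-202 24.4% and 45.6%. All 31-base words of Furin-201 also occur in other transcripts, so its level depends on how shared reads are divided. The 3 transcripts together held 96.9% and 96.0% of Furin counts in the first quantification and 97.1% and 96.3% in the other, so their sum held where the split did not.

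Mme-201, Mme-205 and Mme-206 have identical coding sequences of 2250 bases. By TPM, Mme-201 led in the first quantification with 42.4% in replicate 1 and 38.8% in replicate 2. By counts Mme-205, whose 3′ UTR is 5701 bases long, held 48.5% and 47.3%. In the other quantification Mme-201 took 29.8% and 14.5% of TPM and Mme-206 27.4% and 31.7%, which put Mme-206 ahead in replicate 2.

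At the level of whole genes the quantifications differed in size but not in which library was higher for Nppa, Nppb, Npr3, Furin and Mme, which were lower in replicate 2, and for Npr2 and Corin, which were higher, in scaled counts. Nppa was at 907 and 154 TPM in the other quantification, and its estimated counts there were 79.6% and 80.4% of those in the first. The median measured gene had 106% and 107%. Nppb was at 233 and 180 TPM there, with 96.7% and 97.0% of the first counts. Nppa thus received fewer reads in the other quantification in both libraries alike, and its ratio between the libraries was not moved by this.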

How the data were processed

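Gene and transcript tables of 2 heart libraries of 1 group were used. Per the deposited notes and the file headers, the authors worked on mm10 with the GENCODE M21 annotation; the programs are not given in the sources used here, and neither is whether counting used strand. The authors' tables hold expected counts in the first quantification and estimated counts in the other, where reads that fit several transcripts are divided, and the posterior SD of those counts, a measure of another kind. The same deposited tables hold TPM, FPKM and, for transcripts, the percent of the gene's TPM. The reference is that of B6, which may have cost both libraries some reads from divergent CAST alleles. The 26249 rows that name no annotated gene held 3.89 and 3 counts and were left out.

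Expected counts were rounded and scaled with edgeR 4.0.16 (TMM; R 4.3.3), with DESeq2 1.42.0 size factors, total counts and ERCC counts as alternatives; intervals were computed in Python 3.11.15 with scipy 1.17.1. To count as over 2-fold, a gene needed a mean count of 50 or more, a ratio beyond 2-fold and an interval without 1. The calling was tested on simulated data. The reads carry no molecular identifiers and so are not independent molecules; intervals and floors therefore reflect counting error alone. No p-value was computed.

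The genes, lists, tests and alternatives were chosen with earlier results of these data known. The text names all 9 genes, the 3 highest of each pathway list, those over 2-fold or under 1 TPM in both libraries, the 2 highest of each marker list and those at 0 counts, genes within 100 kb of Nppa and Nppb, and the 5 genes nearest to Nppa in ratio. Hand2, Tbx5, Gata6, Pde3b, Prkg1, Pcsk6, Sln, Bmp10, Kcna5, Atf3, Cnn1, Myh11, Tagln, Pdgfrb, Kcnj8 and Abcc9 were named after their values were seen. The same holds for Kcnj3, Gja5 and Nr2f1. Promoters are from RefSeq, and transcript sequences from GENCODE. Some genes and 1 sequence that these rules would name are not reported here.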

Additional observations from a re-analysis of the deposited data

How the results depend on the processing

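Over 9 settings of scaling, added count, count minimum, fold and quantification, Nppa was the 1 gene of the set over the fold threshold each time. Of all measured genes, 1.39% to 3.9% were counted at 2-fold, and 6.27% in the setting of 1.5-fold. The 8 detected genes remained 8 under each quantification, unit and detection threshold tried. Rescaling TPM to protein-coding genes raised the mean of every one of the 9, among them Nppb to 317, Furin to 129.5, Corin to 100.2 and Mme to 9.70 TPM. It multiplies these genes by the same factor within a library. The Nppa over Nppb (mean 1.22) and clearance (mean -1.52) log2 ratios could therefore change only through the added 0.1, which is no check of them. Of the ratios between the libraries, those of Npr1 (-0.09 to 0.01) and Nppc (-1.32 to 0.10) changed sign; the other 7 genes kept theirs, with Nppa between -2.58 and -2.48. Scaling by total count moved 7 of the 9 ratios and scaling by ERCC counts 3 beyond their reference interval, without a change of sign other than that of Npr1. In the pathway lists, 0 genes were over 2-fold with TMM scaling and 1 (Pde3b) with total-count scaling and 1 with ERCC scaling, alternatives added after seeing the data. Its ratio there was -1.04 and -1.0004. The dominant transcript was the same in both libraries for 6 genes in the first quantification and for 4 in the other, also added afterwards. Left with 1 library at a time, the log2 ratio of Nppa over Nppb ran from 0.12 to 2.32 and that of Npr3 over the cyclase receptors from -1.79 to -1.24. Depth limits Nppc alone of the 9. No paired analysis was possible because the libraries form 1 group.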
